A study of Homo sapiens with 6 samples.

Results

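HMGA2 and 9 genes used to follow epithelial-mesenchymal transition (EMT) were examined in MCF10A cells depleted of PAX9, a paired-box transcription factor. The 10 genes are HMGA2, its paralog HMGA1, the transcription factors SNAI2, ZEB1 and TWIST1, the intermediate filament gene VIM, the cadherin genes CDH1, CDH2 and CDH3, and the fibronectin gene FN1. They were chosen by name, with earlier results of these data known. Each was found by its exact symbol in 1 row of the deposited table, so all 10 are accounted for among 26822 named genes in 41656 rows. MCF10A is an established line of non-tumorigenic human breast epithelial cells. Both groups were transfected with 30 nM of siRNA and harvested after 72 h. The siNT group (3 samples) received non-targeting siRNAs, and the siPAX9 group (3 samples) received siRNAs against PAX9. Poly(A)+ RNA was sequenced, and the deposited table holds 1 pooled FPKM per gene for each group (fragments scaled by transcript length and by the number of mapped reads). It has no value per sample, no spread between replicates and no fragment counts behind these numbers, so no test was run here, and the values themselves allow no comparison with replicate error. Because the RNA is from whole cultures, fewer cells of a type and less RNA per cell cannot be told apart.

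HMGA2 and HMGA1 are chromatin proteins that bind AT-rich DNA through short AT-hook motifs and change how transcription factors assemble at promoters and enhancers. HMGA2 is abundant in embryonic and many tumor cells, is a classical target of the let-7 microRNAs, and can promote EMT. In EMT, epithelial cells lose E-cadherin (CDH1) junctions and gain vimentin (VIM), N-cadherin (CDH2) and fibronectin (FN1), and the factors SNAI2, ZEB1 and TWIST1 repress epithelial genes by binding E-box sequences. Basal-like breast lines such as MCF10A carry vimentin and P-cadherin (CDH3) beside epithelial keratins.

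The knockdown was checked first. PAX9 itself was listed at 2.80 FPKM in siNT and at 0.325 FPKM in siPAX9, a ratio of 0.116. Its row on chromosome 14 also spans SLC25A21, which has a row of its own. The labelled cell type was then checked against marker lists. The 8 markers of basal-like breast epithelium were all measured, with a summed level of 3773 FPKM in siNT and 4345 FPKM in siPAX9, led by KRT17 (1718 and 2088 FPKM) and KRT5 (1558 and 1807 FPKM). Of the 8, 4 were higher in siPAX9 (KRT17, KRT5, KRT14 and CDH1) and 4 lower (EPCAM, KRT18, TP63 and LAMB3), with a median log2 change of 0.02. A gene is called measured here when its FPKM reached 1 in the higher group, which held for 13622 named genes and for all 10 of the genes described.

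In siNT, the order of levels from high to low was VIM, HMGA1, CDH3, CDH1, SNAI2, HMGA2, TWIST1, CDH2, ZEB1 and FN1. In siPAX9 it was CDH3, CDH1, VIM, HMGA1, SNAI2, FN1, TWIST1, HMGA2, CDH2 and ZEB1. Whether neighbours in either order differ beyond replicate spread cannot be judged from pooled values. Of the 10 genes, 4 were at least 2-fold lower in siPAX9 (VIM, CDH2, HMGA2 and HMGA1), 2 were at least 2-fold higher (FN1 and CDH1), and 4 differed by less (SNAI2, ZEB1, TWIST1 and CDH3). Among all measured named genes, 7.22% (984 genes) were at least 2-fold lower and 7.75% (1056 genes) at least 2-fold higher, and the median log2 change was -0.07. These shares are also the background for the counts of each list below. Because the 10 genes and the lists were chosen with earlier results known, setting their counts beside these shares is not a test. When both groups were instead scaled to the same total FPKM over named rows, every log2 change shifted up by 0.27, and the lower genes made up 27.2% of those past 2-fold (620 lower and 1658 higher) in place of 48.2%. Centring on the median of genes with at least 10 FPKM in both groups shifted the changes up by 0.13 (774 lower and 1269 higher, 37.9% lower), and centring on the median of all measured genes by 0.07. With equal totals CDH3 passed 2-fold, and the 6 genes already past it stayed past it.

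**Figure D1:**
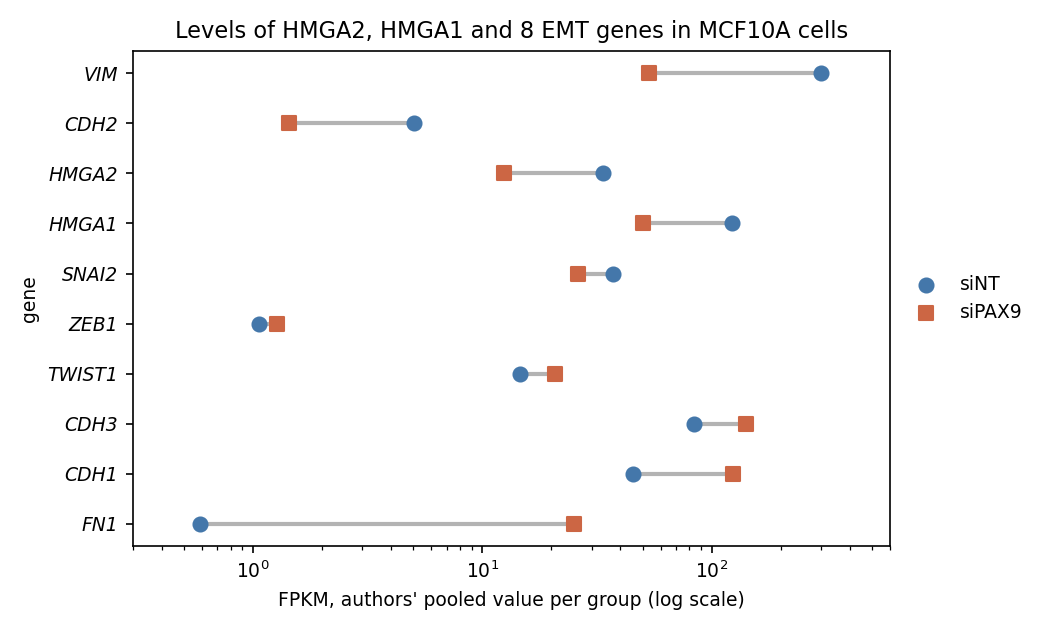
FPKM of each of the 10 genes on a log axis, with a circle for the authors' pooled value in siNT and a square for that in siPAX9, joined by a line. The genes are ordered by their change, from VIM (301 to 53.5 FPKM) at the top to FN1 (0.588 to 25.2 FPKM) at the bottom; no error bars exist because each group has a single pooled value.

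Sequences upstream of the start were read for the genes that differed most and had an entry in the RefSeq promoter table (GRCh38.p14), to show what lies at the promoters of genes that differed in opposite directions. An entry was found for 5 of the 10 genes, HMGA1, ZEB1, VIM, CDH2 and FN1, and none is printed for HMGA2, SNAI2, TWIST1, CDH1 and CDH3. The 250 bases before the outermost RefSeq start are printed 5′ to 3′ on the strand of the gene for FN1, which was higher, and for VIM, CDH2 and HMGA1, which were lower. Capitals mark exact matches, on either strand, to the E-box CAGGTG, the cyclic AMP response element TGACGTCA, the GC box GGGCGG, the CCAAT box and GCGTGACC, letters held by some but not all of the PAX9 binding sequences that the study scanned for. Matches to different motifs did not overlap, but GC boxes could overlap each other.
FN1 (chr2:215436069-215436318, minus strand): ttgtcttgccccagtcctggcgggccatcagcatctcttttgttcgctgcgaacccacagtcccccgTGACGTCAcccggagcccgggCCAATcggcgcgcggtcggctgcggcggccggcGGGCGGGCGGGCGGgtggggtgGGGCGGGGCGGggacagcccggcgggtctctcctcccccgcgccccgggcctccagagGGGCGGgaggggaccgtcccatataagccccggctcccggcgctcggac
VIM (chr10:17227991-17228240, plus strand): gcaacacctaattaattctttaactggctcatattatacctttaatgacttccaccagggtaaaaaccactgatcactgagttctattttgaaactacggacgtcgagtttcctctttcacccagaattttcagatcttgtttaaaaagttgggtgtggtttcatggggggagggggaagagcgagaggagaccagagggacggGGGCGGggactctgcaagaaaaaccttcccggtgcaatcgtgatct
CDH2 (chr18:28177131-28177380, minus strand): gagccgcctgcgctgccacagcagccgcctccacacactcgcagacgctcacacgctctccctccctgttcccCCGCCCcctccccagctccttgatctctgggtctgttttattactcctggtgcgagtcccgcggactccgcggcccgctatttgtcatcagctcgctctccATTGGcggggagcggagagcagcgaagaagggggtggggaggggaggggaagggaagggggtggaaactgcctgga
HMGA1 (chr6:34236623-34236872, plus strand): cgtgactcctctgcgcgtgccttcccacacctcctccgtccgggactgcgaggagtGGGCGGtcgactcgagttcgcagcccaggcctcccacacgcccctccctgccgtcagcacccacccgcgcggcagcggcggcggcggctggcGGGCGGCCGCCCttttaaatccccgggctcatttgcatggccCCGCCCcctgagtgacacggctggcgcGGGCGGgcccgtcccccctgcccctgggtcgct

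The FN1 window held 1 cyclic AMP response element at position -183 from the start, 1 CCAAT box and 6 GC boxes, and it was 76.4% G and C. The HMGA1 window held 5 GC boxes (74.8% G and C), that of CDH2 1 GC box and 1 CCAAT box (66.0%), and that of VIM 1 GC box (46.0%). Of all 35116 promoter windows of this length, 1.65% held the response element, 42.6% a GC box and 32.0% a CCAAT box. The E-box, present in 17.5% of all windows, had 0 matches in these 4 windows and 1 in that of ZEB1, which is not printed. These PAX9 letters, present in 0.749% of all windows, had 0 matches in each of the 5. These matches describe the letters of short windows and say nothing of binding in these cells.

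HMGA2 lies on the forward strand of chromosome 12, with its annotated gene from 66218240 to 66360071 (GRCh37, the same coordinates as the authors' hg19). Its level was 33.7 FPKM with siNT against 12.5 FPKM with siPAX9, a 2.70-fold lower value and a log2 change of -1.43. This was the 489th lowest change among the 13622 measured named genes. The authors' row starts at 66151800 and has the same span as the row of RPSAP52, a pseudogene transcribed from the opposite strand next to the start of HMGA2. RPSAP52 was lower too, at 2.86 FPKM in the control and 0.94 FPKM after PAX9 depletion. The strand setting of the libraries is not given in the sources used here, so reads from the overlapping part of these genes cannot be told apart. The level of RPSAP52 was well below that of HMGA2 in both groups.

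Around HMGA2, 7 other measured genes had rows within 500 kb, of which 2 were at least 2-fold lower and 0 at least 2-fold higher. The lower rows were RPSAP52 and LOC100129940 (1.74 and 0.85 FPKM), both sharing the span of the HMGA2 row. LOC100129940 was under 2-fold with each other scaling and with either value added to the FPKM, and RPSAP52 with 1 added. The other neighbours had log2 changes of -0.14 for TMBIM4, -0.08 for LLPH, 0.00 for GRIP1, 0.04 for MSRB3 and -0.98 for HELB, a DNA helicase. By distance between the pairs of log2 FPKM values, which are only 2 points per gene, the genes nearest to HMGA2 were MOCOS, EPB41L4A-AS1, PLAT, HMGN2 and SEH1L, with distances from 0.04 to 0.09. HMGN2, itself a nucleosome-binding HMG protein, was listed at 33.6 FPKM in siNT and 13.0 FPKM in siPAX9.

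HMGA1, on chromosome 6 from 34204650 to 34214008 and with the GC-box-rich upstream sequence printed above, was more abundant than HMGA2. Its level was 122 FPKM with siNT and 50.1 FPKM with siPAX9, 2.44-fold lower with a log2 change of -1.29. The HMGA1 to HMGA2 ratio of levels, which does not depend on how the groups are scaled against each other, was 3.63 in siNT and 4.01 in siPAX9. HMGA1 has processed pseudogene copies elsewhere in the genome, so its value is uncertain where reads were split among them.

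The wider list of HMG proteins (HMGA, HMGB and HMGN genes with related HMG-box genes) had 22 genes, 18 of them measured. At least 2-fold lower were 6 of the 18, at least 2-fold higher was 1, and the median log2 change was -0.60 against -0.07 for all measured genes. HMGB2, a DNA-bending protein prominent in dividing cells, had the most negative log2 change of the list, with 63.0 FPKM against 14.4 FPKM. The other lower genes beside HMGA1, HMGA2 and HMGN2 were HMGB3 and HMGN5. Both were close to the limit. HMGB3 was under 2-fold with either centring, with equal FPKM totals and with 1 added to each FPKM, and HMGN5 under the last pair of these settings. HMGN3 was the higher one, with 23.6 FPKM in siNT and 65.7 FPKM in siPAX9. HMGN1, the most abundant by the mean of both groups, had 109 FPKM against 90.2 FPKM.

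A list of let-7 pathway genes and genes linked to HMGA2 held 28 symbols, of which 26 were in the table and 21 were measured. LIN28A and LIN28B, which block let-7 maturation, were not measured (LIN28B was listed at 0 in both groups and LIN28A at 0.0144 and 0 FPKM). MIRLET7BHG, the host transcript of a let-7 cluster, stood at 7.20 FPKM in the control and 10.4 FPKM with PAX9 depleted, in a row that also carries its microRNAs. The mature let-7 microRNAs themselves are not measured by poly(A)+ sequencing. In all, 5 of the 21 measured genes were at least 2-fold lower and 1 at least 2-fold higher, with a median log2 change of -0.28. The lower ones were H19, an imprinted long noncoding RNA whose row includes a microRNA (6.76 to 0.69 FPKM), CCNB2, cyclin B2 (20.4 to 4.71 FPKM), CCNA2, cyclin A2 and a reported HMGA2 target (18.6 to 6.12 FPKM), RPSAP52, and DGCR8 (118 to 58.7 FPKM), whose row includes 2 microRNAs. DGCR8 was under 2-fold with each other scaling and with 1 added to each FPKM. The higher one was ZCCHC6, now named TUT7, a terminal uridylyltransferase (11.5 to 26.4 FPKM). MIR205HG, the host of the epithelial microRNA miR-205, was the most abundant of the list at 873 and 1250 FPKM.

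VIM encodes vimentin, the intermediate filament protein of mesenchymal cells. It is on chromosome 10 from 17270240 to 17279592 and had the largest difference in FPKM of the 10 genes. Its level was 301 FPKM in control cells and 53.5 FPKM after PAX9 depletion, 5.62-fold lower with a log2 change of -2.49, the 149th lowest of the measured genes. By level it went from rank 246 to rank 1417 of the measured named genes. VIM-AS1, an antisense transcript in the same row span, was at 3.72 and 1.59 FPKM, so the overlapping reads of both cannot be told apart.

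FN1 encodes fibronectin, an extracellular matrix glycoprotein, and lies on chromosome 2 from 216225163 to 216300796. Its difference was opposite in direction to that of VIM. It was below 1 FPKM in siNT, at 0.588 FPKM, and at 25.2 FPKM in siPAX9, a ratio of 42.9 and a log2 change of 5.42. This was the 121st highest change with no value added to the FPKM. Such ranks place the 130 genes listed at 0 in 1 group at the extremes, and no rank was taken with a value added. The FN1 upstream window above is the one with the cyclic AMP response element. Because the control level is so low, the size of the change depends on how low values are treated, and it was 4.05 on the log2(FPKM + 1) scale. The VIM to FN1 ratio was 512 in siNT and 2.12 in siPAX9.

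**Figure D2:**
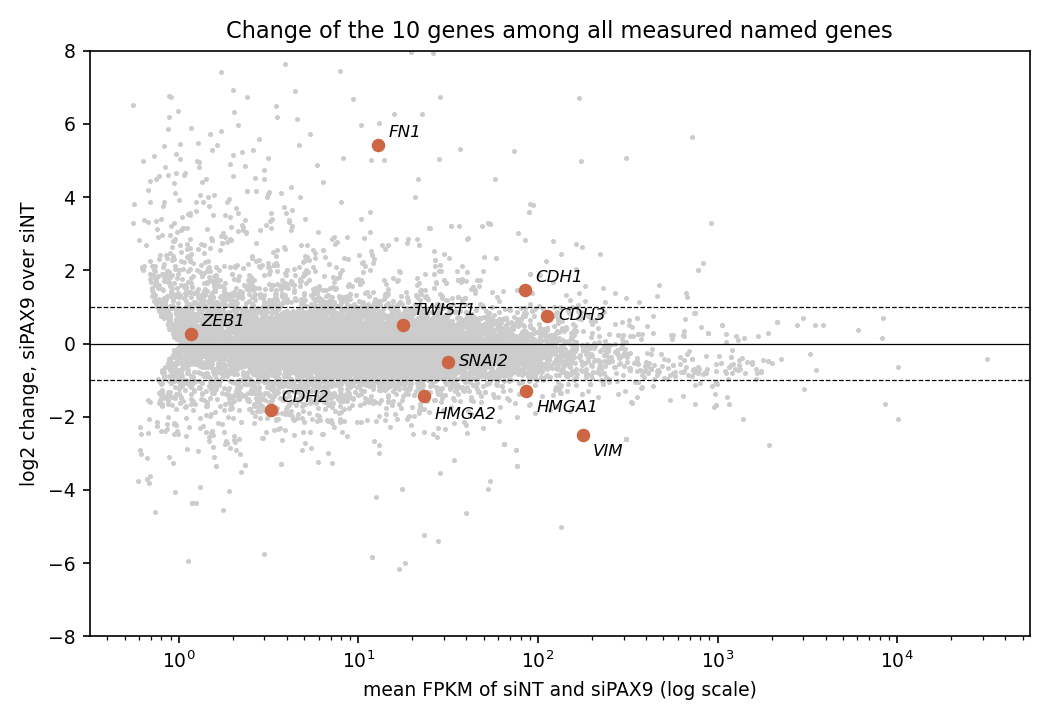
Log2 change of siPAX9 over siNT against the mean FPKM of both groups (log axis) for the measured named genes above 0 in both groups (13482 grey points; 130 genes listed at 0 in 1 group and 10 beyond a log2 change of 8 in size are not drawn), with the 10 genes in color and dashed lines at 2-fold. FN1 stands far above the upper line at 5.42 and CDH1 above it at 1.46, while VIM, CDH2, HMGA2 and HMGA1 lie below the lower line.

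CDH1 (chromosome 16, 68771195 to 68869440) encodes E-cadherin, the main adhesion receptor of epithelial junctions. It was higher after PAX9 depletion, at 124 FPKM against 45.3 FPKM in siNT (log2 change of 1.46, ratio 2.74). CDH3 encodes P-cadherin, typical of basal epithelium, and its row ends 38.2 kb before that of CDH1. CDH3 had 84.1 FPKM in the control and 142 FPKM in siPAX9, a log2 change of 0.75 that did not reach 2-fold. CDH2 (chromosome 18, 25512843 to 25757910) encodes N-cadherin, the mesenchymal and neural cadherin, and it was low in both groups, with 5.06 FPKM in siNT and 1.44 FPKM in siPAX9 (3.51-fold lower, log2 change of -1.81).

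Together the 3 cadherin levels summed to 134 FPKM in siNT and 267 FPKM in siPAX9. N-cadherin made up 3.76% of that sum in the control and 0.538% after depletion. E-cadherin made up 33.7% and 46.5%, and P-cadherin 62.5% and 53.0%. The CDH1 to CDH2 ratio was 8.96 in siNT and 86.4 in siPAX9, and the CDH1 to VIM ratio was 0.151 and 2.32. These ratios are unaffected by the scaling between groups. Near CDH1, 14 measured genes had rows within 500 kb, of which 1 was at least 2-fold higher and 0 at least 2-fold lower. The higher one was HAS3, a hyaluronan synthase, with a log2 change of 1.09, and it was under 2-fold with 1 added to each FPKM.

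**Figure D3:**
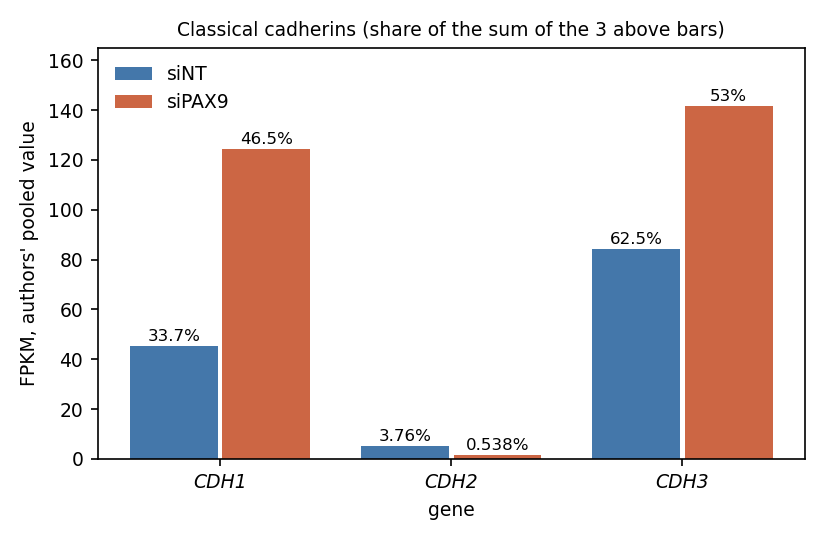
Bars from 0 show the authors' pooled FPKM of CDH1, CDH2 and CDH3 in siNT and siPAX9, with the share of the sum of the 3 genes printed above each bar. CDH1 and CDH3 were higher in siPAX9 (124 and 142 FPKM), whereas CDH2 made up 3.76% of the sum in siNT and 0.538% in siPAX9.

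SNAI2, ZEB1 and TWIST1 differed by less than 2-fold. SNAI2 (chromosome 8, 49830157 to 49834299) encodes Slug, the most abundant of these 3 repressors here, with 37.1 FPKM in siNT and 26.0 FPKM in siPAX9 (log2 change of -0.51). TWIST1 (chromosome 7, annotated from 19060614 to 19157259), a basic helix-loop-helix factor, had 14.6 FPKM against 20.7 FPKM (0.50). The authors' TWIST1 row covers only 19155091 to 19157295 of that span or beside it. ZEB1 (chromosome 10, 31607424 to 31818742), a zinc finger homeobox factor, was barely above the measured limit at 1.06 and 1.27 FPKM (0.26). The SNAI2 and TWIST1 values differed in opposite directions, and the SNAI2 to TWIST1 ratio was 2.54 in siNT and 1.26 in siPAX9. ZEB1-AS1, antisense to ZEB1, was at 1.21 and 1.37 FPKM, so the ZEB1 level is uncertain where reads overlap.

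Across the list of 20 EMT transcription factors, 15 were measured, 3 of them at least 2-fold higher and 2 at least 2-fold lower, with a median log2 change of -0.05. The higher genes were SOX9, a progenitor cell factor (1.39 to 9.01 FPKM), ZEB2 (0.356 to 1.71 FPKM) and FOXQ1, a forkhead factor (2.24 to 7.36 FPKM). The lower genes were HMGA2 and the forkhead gene FOXC2 (12.0 to 4.46 FPKM). ZEB2 was measured only through its siPAX9 value and was under 2-fold with 1 added to each FPKM. SNAI1, the founding Snail factor, was under 1 FPKM in both groups, at 0.648 and 0.133 FPKM. YBX1, the most abundant, had 249 FPKM in siNT and 182 FPKM in siPAX9.

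The list of 34 mesenchymal markers was mixed. Of its 23 measured genes, 6 were at least 2-fold higher and 4 at least 2-fold lower, with a median log2 change of 0.18. The lower genes were VIM, CDH2, SPARC, a collagen-binding matrix protein (8.73 to 1.32 FPKM), and LOX, lysyl oxidase, which crosslinks collagen (39.9 to 13.6 FPKM). The higher genes were FN1, POSTN (0.0407 to 1.41 FPKM), COL1A1 (0.454 to 4.13 FPKM), DCN, decorin (5.85 to 37.9 FPKM), TAGLN (0.869 to 3.66 FPKM) and FAP (2.07 to 4.33 FPKM). S100A4, next to VIM by the mean of both groups, had 128 and 186 FPKM. Of the 6 higher genes, FN1, POSTN, COL1A1 and TAGLN were below 1 FPKM in siNT, and FAP was under 2-fold with 1 added to each FPKM. With genes of at least 5 FPKM in the higher group only, 2 of the list were at least 2-fold higher and 4 at least 2-fold lower, so the balance of directions turned.

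Since several of these are also fibroblast genes, the fibroblast marker list was read as a whole. Of its 9 genes, 3 were measured (COL1A1, DCN and FAP), and all 3 were higher in siPAX9. COL1A1, at 0.454 FPKM in siNT, was measured only through its siPAX9 value, so it could only count as higher. FAP was under 2-fold with 1 added to each FPKM. The summed level of the list was 8.53 FPKM in siNT and 46.5 FPKM in siPAX9, of which DCN alone gave 37.9 FPKM. The other 6 genes were under 0.1 FPKM in both groups, with COL3A1 listed at 0 in both, COL1A2 at 0 and 0.00337 FPKM, PDGFRA at 0.00561 and 0.0117 FPKM, PDGFRB at 0.0781 and 0.0637 FPKM, THY1 at 0.0543 and 0.00629 FPKM, and LUM at 0.0212 and 0.0782 FPKM. The smooth muscle list summed to 0.172 and 0.224 FPKM and the endothelial list to 3.41 and 2.46 FPKM (PECAM1 at 2.58 and 0.495 FPKM, KDR at 0.798 and 1.94 FPKM). The leukocyte list summed to 14.7 and 57.3 FPKM, of which CD14, a myeloid receptor, gave 14.4 and 56.5 FPKM. Below 1 FPKM in both groups were ITGAM (0.234 and 0.691 FPKM) and PTPRC (0.0166 and 0.0922 FPKM), both also higher in siPAX9, and CD3E, listed at 0 in both. The luminal secretory list summed to 6.25 and 7.88 FPKM, nearly all from GATA3. The part of other cell types in the levels of FN1 and VIM was not tested.

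In the list of 30 epithelial adhesion and identity genes, 29 were measured, of which 6 were at least 2-fold higher and 1 at least 2-fold lower, with a median log2 change of 0.63. CLDN4, a tight junction claudin, went from 0.842 to 27.1 FPKM, RAB25, an epithelial Rab GTPase, from 0.63 to 7.86 FPKM, and OCLN (occludin) from 1.96 to 6.06 FPKM. CLDN4 and RAB25 were measured only through their siPAX9 values, so they could only count as higher. TJP3 and CDH1 were also among the higher genes. EPCAM was the lower gene, at 34.3 FPKM in siNT and 16.7 FPKM in siPAX9. With equal FPKM totals, 13 genes of this list were past 2-fold as higher. EPCAM was under 2-fold in that setting, with either centring and with 1 added to each FPKM. DSP (desmoplakin) and SPINT2, the most abundant, had log2 changes of 0.63 and -0.05.

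Regulators of epithelial identity, transcription factors with the splicing factors ESRP1 and ESRP2, showed the highest median of the 9 lists, 0.95 on the log2 scale. Of 19 genes, 17 were measured, with 8 at least 2-fold higher and 0 at least 2-fold lower. With 1 added to each FPKM the higher genes were 6, without FOXA1 and OVOL2. OVOL1, a zinc finger repressor of mesenchymal genes, went from 0.0497 to 4.02 FPKM, and ZNF750, a regulator of epidermal differentiation, from 0.222 to 5.12 FPKM. Both were measured only through their siPAX9 values, so they could only count as higher. Among genes with at least 5 FPKM in the higher group, 6 of the list were at least 2-fold higher and 0 at least 2-fold lower. The grainyhead genes GRHL3 and GRHL1, which maintain epithelial junction genes, had log2 changes of 2.89 and 1.81. KLF5, an abundant regulator of the list, did not reach 2-fold, with a log2 change of 0.21.

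**Figure D4:**
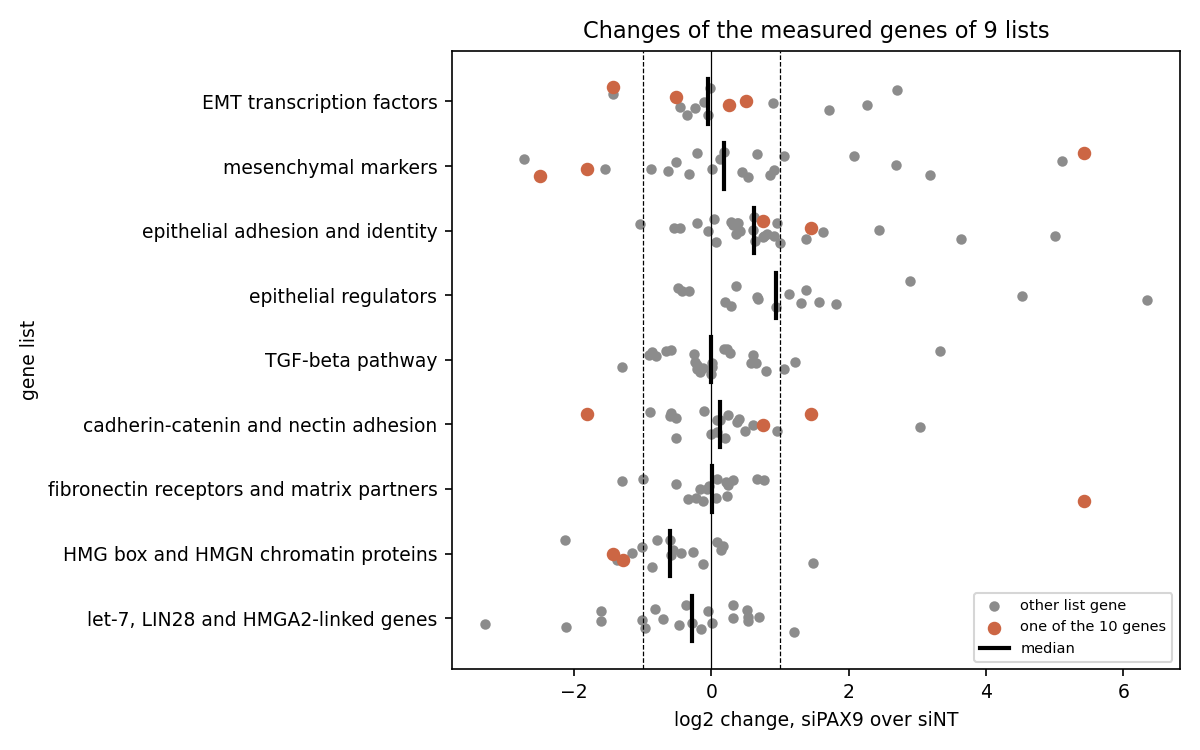
Log2 change of siPAX9 over siNT for every measured gene of the 9 lists, with the 10 genes in color, other genes in grey, a black bar at each list's median and dashed lines at 2-fold. The medians run from -0.60 for the HMG proteins to 0.95 for the epithelial regulators, and FN1 at 5.42 lies far from the rest of the fibronectin receptor list, whose median is 0.02.

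TGF-beta signaling is a main inducer of EMT. Its list had 30 genes, of which 25 were measured. Of these, 3 were at least 2-fold higher and 1 at least 2-fold lower, with a median log2 change of 0.00. Over all measured genes the shares were 7.75% and 7.22%, and such small counts do not set the list apart from them. SMAD6, an inhibitory Smad, was listed at 0.123 and 1.23 FPKM, so it was measured only through its siPAX9 value. FSTL3, which binds activin, went from 22.8 to 53.0 FPKM, and SKIL, a repressor of Smad targets, from 4.38 to 9.10 FPKM. LTBP1, a latent TGF-beta binding protein that also associates with fibronectin matrix, was lower, with a log2 change of -1.30 from 39.5 FPKM in siNT. TGFBI, the most abundant of the list, stood at 154 and 242 FPKM, and TGIF2 at 101 and 101 FPKM in a row shared with C20orf24, so that value is not of TGIF2 alone. With 1 added to each FPKM, SMAD6 and SKIL were under 2-fold, and 2 genes of the list passed in place of 4.

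The partners of the cadherins and of fibronectin were read in the same way. In the list of cadherins, catenins and nectins, 21 of 29 genes were measured, 2 were at least 2-fold higher (CDH1 and NECTIN4, 1.29 to 10.6 FPKM) and 1 was at least 2-fold lower (CDH2), with a median log2 change of 0.13. The catenin genes CTNNA1 and CTNND1, which link cadherins to the cytoskeleton and stabilize them at the membrane, had log2 changes of 0.13 and 0.24, the latter in a row shared with TMX2. In the list of fibronectin receptors and matrix partners, 18 of 25 genes were measured, and past 2-fold were FN1 (higher) and LTBP1 (lower). CDH1, CDH2 and FN1 are among the genes chosen by name, so past 2-fold these lists add only NECTIN4 and LTBP1. LTBP1 is also in the TGF-beta list. Over all measured genes, 7.75% were at least 2-fold higher and 7.22% at least 2-fold lower. Such small counts do not set either list apart from these shares. ITGB1, the beta chain of the classical fibronectin receptor, had 258 and 301 FPKM, and the syndecan SDC4 had 146 and 170 FPKM.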

How the data were processed

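Processed RNA-seq values of MCF10A cells transfected with siNT or siPAX9 were used (3 samples per group, grouped by their titles). Per the paper's methods and the submitters' processing notes, single-end reads were mapped by the authors with Bowtie 2 (genome UCSC hg19), and Cufflinks, run in Partek Flow, gave the levels. The authors deposited FPKM as 1 pooled value per row and group (2 value columns). How the libraries were scaled against each other and their strand setting are not given in the sources used here, and the table gives no fragment count behind a value, so FPKM ratios can carry a scaling error, and the ratios of low values are imprecise. The columns with the authors' fold change, test statistic, p-value, q-value and call were not used, and no test was run.

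Rows were split at commas into symbols, and for a symbol with several rows the row with the highest mean FPKM was kept. The log2 change is log2(siPAX9/siNT) with no pseudocount. A gene counted as measured when the larger of its FPKM values was 1 or more, and as past the limit at a fold of 2, the fold limit of the study's methods. The authors' status column was OK for all 10 genes. Listed starts count from 0 and were raised by 1, since 4877 single-symbol rows then began at their GENCODE gene start on GRCh37, against 513 without it. Of 21207 such rows, 99.3% overlapped their gene.

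From 9 gene lists, the text names the up to 4 largest changes past 2-fold and the 2 most abundant genes of each, and the 5 genes nearest to HMGA2. LIN28A, LIN28B, MIRLET7BHG, SNAI1, FOXC2, LOX, TAGLN, TJP3, FOXA1, OVOL2, DGCR8, ITGAM, PTPRC, THY1, PDGFRB and other marker genes, ZCCHC6, HMGB3, HMGN5 and the neighbouring genes were named outside this rule, with their values known, and some genes that the rule names are not reported here. The 10 genes and the lists were chosen with earlier results of these data known, and some genes are in more than 1 list. Of the list symbols, 3 were matched through an older symbol and 2 were not matched. Alternatives were another pseudocount, scaling, row choice, fold limit and filter. The counting was tested on simulated data. Python 3.11.15, numpy 2.4.6, pandas 2.3.3 and matplotlib 3.10.9 were used. Promoter sequences are from RefSeq (GRCh38.p14), and no coordinates were moved between builds.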

Additional observations from a re-analysis of the deposited data

How the results depend on the processing

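No paired analysis was possible because each group has 1 pooled value, and for the same reason no sample could be left out in turn. The 10 genes kept their direction under each pseudocount, scaling and row choice run, with log2 changes from -1.43 to -1.16 for HMGA2, -2.49 to -2.22 for VIM and 1.44 to 1.73 for CDH1. With equal FPKM totals CDH3 reached 1.02 and passed 2-fold, and with 1 added to each FPKM FN1 was at 4.05. At a fold of 4, 2 of the 10 genes passed (VIM and FN1).

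Counts past the limit that moved by over 1.5 times were as follows. At a fold of 1.5 they were 17 for epithelial adhesion, 12 for TGF-beta, 9 for cadherins and catenins, 5 for fibronectin partners, 11 for HMG proteins, 10 for the let-7 list, and 2012 higher and 2319 lower of all genes. At a fold of 4 they were 2 for EMT factors, 3 for epithelial adhesion, 3 for epithelial regulators, 1 each for TGF-beta, cadherins, fibronectin partners and HMG proteins, 2 for the let-7 list, and 436 higher and 239 lower of all genes. Without the filter they were 8 for EMT factors, 19 for mesenchymal markers, 8 for cadherins, 6 for fibronectin partners, and 3797 higher and 2191 lower of all genes. With FPKM of at least 5, mesenchymal markers had 6 (2 higher and 4 lower, against 6 higher and 4 lower) and all higher genes 552. With 1 added to each FPKM, the TGF-beta list had 2 and all higher genes 681. With equal totals, epithelial adhesion had 13, cadherins 5, and all genes 1658 higher and 620 lower. Of single genes called, EPCAM, HMGB3 and DGCR8 were under 2-fold with either centring, with equal totals and with 1 added. HMGN5 and VIM-AS1 were so with equal totals and with 1 added, and ZEB2, FAP, FOXA1, OVOL2, SMAD6, SKIL, RPSAP52 and HAS3 with 1 added. LOC100129940 was so in each of these settings, with 0.1 added and with its rows summed. With rows of 1 symbol only, H19 and DGCR8 dropped out. Fewer or more genes pass a stricter or looser limit by construction, and the cause of the other shifts was not tested. The table gives no fragment counts, so how far low values such as FN1 in siNT are limited by counting cannot be stated.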
